A study of Mus musculus with 10 samples.

Results

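The globin genes were read from the gene table by symbol, as every row that starts with Hba. or Hbb., and 9 of its 17404 rows met that rule. Hba.a1, Hba.a2, Hba.x and Hba.ps4 are the 4 alpha-type rows, and Hbb.b1, Hbb.bt, Hbb.y, Hbb.bh1 and Hbb.bh2 are the 5 beta-type rows. The libraries are bulk RNA-seq of long-term hematopoietic stem cells (LT-HSCs) sorted from mouse fetal liver at E14.5. KO embryos were Tnfrsf11aCre; Spi1f/f (n = 6) and WT embryos were Tnfrsf11a+/+; Spi1f/f (n = 4), so both groups carried the floxed Spi1 alleles and WT lacked the Cre. Tnfrsf11a-Cre is active in the progenitors of fetal macrophages, and deleting Spi1 (the Pu.1 gene) in them depletes the macrophages of the fetal liver. The labels do not tie libraries to embryos, but the study counts both groups in embryos. Few cells were sorted per library and their RNA was amplified by PCR, so the spread between libraries holds technical spread as well.

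Hemoglobin is a tetramer of alpha-type and beta-type globin chains, each holding a heme. In the mouse, the alpha-type genes lie in 1 cluster and the beta-type genes in another, with embryonic genes at one end and adult genes at the other. Primitive red cells of the yolk sac use the embryonic genes Hba-x (zeta), Hbb-y (epsilon y) and Hbb-bh1 (beta h1), and definitive red cells, which mature in the fetal liver, use the adult genes Hba-a1, Hba-a2, Hbb-bs and Hbb-bt. Stem cells are not a site of hemoglobin synthesis, whereas erythroblasts fill most of the fetal liver and their globin mRNA is very abundant.

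By the Gencode vM21 annotation of GRCm38, the alpha cluster runs along the plus strand of chromosome 11, with Hba-x at 32276400 to 32278116, Hba-a1 at 32283511 to 32284465 and Hba-a2 at 32296489 to 32297298. The beta cluster runs along the minus strand of chromosome 7, with Hbb-y at 103851749 to 103853216, Hbb-bh1 at 103841637 to 103843164, Hbb-bh2 at 103839124 to 103840520, Hbb-bs at 103826534 to 103828096 and Hbb-bt at 103812524 to 103813996. The unprocessed pseudogene Hba-ps4 lies on chromosome 17. The row Hbb.b1 held the sum of the transcripts that Gencode names Hbb-bs, with a largest gap of 0.92 counts in any library, and it is therefore the Hbb-bs gene of the C57BL/6 haplotype.

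The adult genes come in near-identical pairs, and the coding sequences show where reads can be told apart. Hba-a1 and Hba-a2 each have 429 coding bases and differ at 1 of them (C381T, counted from 1 at the first base of the start codon, Hba-a1 base first). Bases 351 to 411 are shown with that base in capitals:
Hba-a1: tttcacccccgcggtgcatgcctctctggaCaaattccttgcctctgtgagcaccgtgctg
Hba-a2: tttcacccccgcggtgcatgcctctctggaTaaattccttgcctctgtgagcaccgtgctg
Hbb-bs and Hbb-bt each have 444 coding bases and also differ at 1 of them (C417T, Hbb-bs base first), shown in bases 387 to 444:
Hbb-bs: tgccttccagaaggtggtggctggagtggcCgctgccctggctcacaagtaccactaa
Hbb-bt: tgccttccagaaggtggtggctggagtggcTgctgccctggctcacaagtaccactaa
Over whole transcripts, the words of 31 bases that Hba-a1 and Hba-a2 share make up 71.3% of the words of Hba-a1 and 91.0% of those of Hba-a2. For Hbb-bs and Hbb-bt, the shared words make up 66.9% and 59.4%. Kallisto divides reads from such shared stretches between transcripts by estimation, so the split within each pair is uncertain, while the sum of a pair does not depend on it. The embryonic genes stand apart: Hba-x had 62.0% coding identity to Hba-a1, Hbb-y had 74.3% and Hbb-bh1 74.1% to Hbb-bs, and no word of 31 bases was shared in any of these 3 pairs.

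Promoters of adult and embryonic genes are shown because the rows of these genes are compared below. Hbb-bh1 had no entry in the promoter set used, so its promoter was neither shown nor searched. Each line gives the 120 bases before the RefSeq transcript start (GRCm38.p6), with matches on either strand to CACCC (the box bound by Klf1), CCAAT, GATA (the core bound by Gata1) and TATAA in capitals:
Hba-a2 (chr11:32296372-32296491, plus strand): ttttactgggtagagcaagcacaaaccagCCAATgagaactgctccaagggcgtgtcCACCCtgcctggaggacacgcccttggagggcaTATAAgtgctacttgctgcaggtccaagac
Hbb-bs (chr7:103827929-103828048, minus strand): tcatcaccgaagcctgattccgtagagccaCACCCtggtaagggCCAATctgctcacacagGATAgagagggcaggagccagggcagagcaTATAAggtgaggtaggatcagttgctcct
Hbb-bt (chr7:103813924-103814043, minus strand): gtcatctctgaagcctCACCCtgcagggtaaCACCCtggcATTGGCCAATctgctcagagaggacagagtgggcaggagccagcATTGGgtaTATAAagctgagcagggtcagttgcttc
Hba-x (chr11:32276480-32276599, plus strand): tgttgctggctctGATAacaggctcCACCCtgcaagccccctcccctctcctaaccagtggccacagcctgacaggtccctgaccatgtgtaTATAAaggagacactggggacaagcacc
Hbb-y (chr7:103853208-103853327, minus strand): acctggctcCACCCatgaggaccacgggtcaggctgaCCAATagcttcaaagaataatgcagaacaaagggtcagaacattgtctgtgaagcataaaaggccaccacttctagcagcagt
All 4 motifs were found in the Hbb-bs window. Hba-a2 held the CACCC motif, a CCAAT match and a TATAA match, and the Hba-a1 window held the same 3. Hbb-bt had 2 matches to CACCC and 3 to CCAAT, where 2 of the CCAAT matches abut. Hba-x held the CACCC motif, a GATA match and a TATAA match, and Hbb-y held the CACCC motif and a CCAAT match. Among 32851 promoter windows of the same length, CACCC was found in 31.7%, CCAAT in 21.3%, GATA in 29.5% and TATAA in 11.8%, so single matches are common, and a match is a description of letters, not of a bound site.

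Globin rows took very different shares of the libraries. The share of all counts on genes was 0.373%, 0.296%, 0.383%, 1.99%, 6.0% and 12.4% in KO replicates 1 to 6, and 0.124%, 2.44%, 23.5% and 0.428% in WT replicates 1 to 4. WT replicate 3 was the highest and WT replicate 1 the lowest of the 10 libraries, so the WT range enclosed every KO library, and the extremes lay 189-fold apart. The Wilson 95% interval for the lowest share was 0.122% to 0.126%, which covers counting error only. The depth behind these shares was 5315435 to 30941726 counts per library. The mean share was 3.58% ± 4.85 in KO (SD, n = 6) and 6.62% ± 11.3 in WT (SD, n = 4), and the difference was smaller than the spread between libraries (two-sided exact permutation test over 210 assignments, p = 0.624, adjusted p = 0.690 over 4 tests). Without WT replicate 3 the difference turned from -3.05 percentage points (KO minus WT) to 2.58 (exact permutation p = 0.5). In bulk RNA of this kind, fewer cells of a type and less RNA per cell cannot be told apart.

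**Figure D1:**
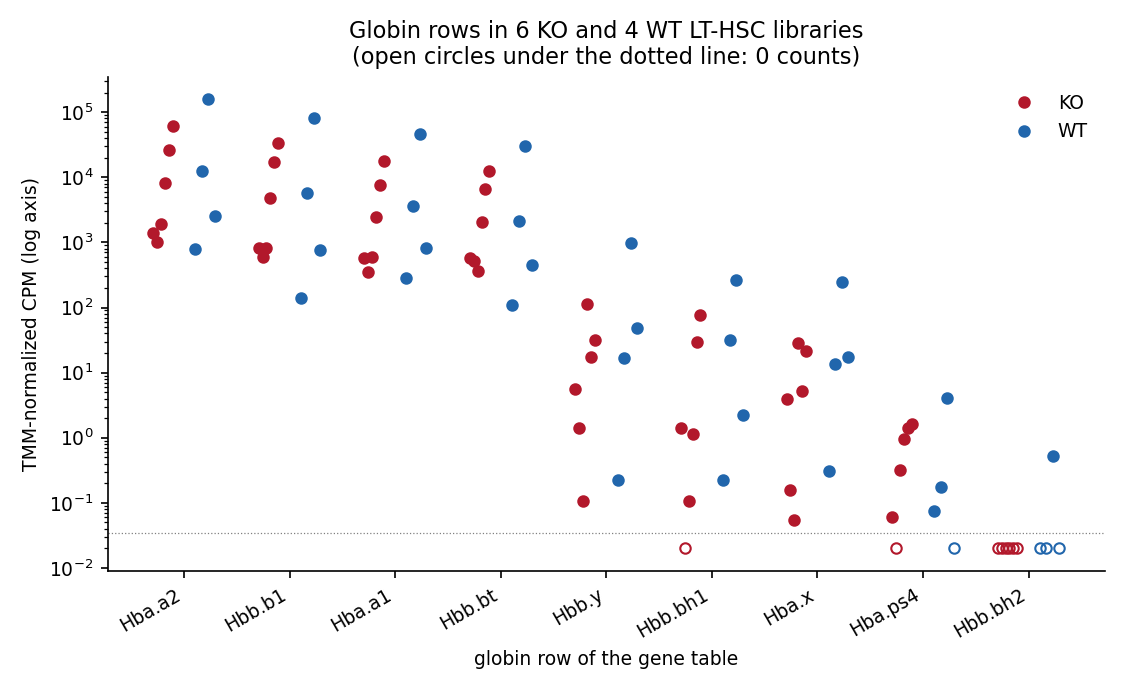
TMM-normalized CPM (log axis) of the 9 globin rows, 1 point per library (red KO, blue WT; open circles, 0 counts). The 4 adult rows lie above the embryonic rows within every library, and for Hba.a2 the WT libraries span 799 to 157700 CPM, wider than the KO libraries.

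The adult alpha genes carried most of the globin counts. CPM (counts scaled to library size by TMM) of Hba.a2 were 1382, 1011, 1947, 8154, 26130 and 62340 in KO and 799, 12610, 157700 and 2533 in WT. Hba.a1 had 582, 357, 599, 2497, 7638 and 17820 CPM in KO and 287, 3608, 46000 and 812 in WT. In both rows KO replicates 4, 5 and 6 and WT replicates 2 and 3 were high, and the groups overlapped. Hba.a2 made up 40.7% to 59.8% of a library's globin counts and Hba.a1 13.3% to 21.4%. Ranked by counts among all genes, Hba.a2 was the top gene in KO replicates 5 and 6 and WT replicates 2 and 3 (rank 1), and rank 167 in WT replicate 1.

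The adult beta genes were high in the same 5 libraries. Hbb.b1 had 830, 599, 813, 4775, 16930 and 34130 CPM in KO and 140, 5769, 81690 and 772 in WT. Hbb.bt had 585, 517, 363, 2093, 6668 and 12660 CPM in KO and 110, 2136, 30400 and 445 in WT. WT replicate 1 was again the lowest library and WT replicate 3 the highest. Hbb.b1 made up 10.5% to 29.5% of globin counts and Hbb.bt 8.23% to 20.8%.

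Of the 9 globin rows, 8 passed the filter of 11 counts in total, and none passed an adjusted p of 0.1 in edgeR's quasi-likelihood test of KO against WT, nor an unadjusted p of 0.05 (0 of 8). Over all 16725 genes tested, 3.99% passed the adjusted threshold, 1.32% higher and 2.67% lower in KO, and 3139 genes had an unadjusted p under 0.05. DESeq2 with the study's fold-change threshold called none of them either, and gave Hbb.y no adjusted p. The fitted log2 fold changes (KO minus WT) were -1.37 (SE 1.44, edgeR adjusted p = 0.663) for Hba.a1, -1.37 (SE 1.49, adjusted p = 0.676) for Hba.a2, -1.19 (SE 1.59, adjusted p = 0.743) for Hbb.b1 and -1.12 (SE 1.44, adjusted p = 0.734) for Hbb.bt. These signs rest on WT replicate 3: without it edgeR gave 1.67, 1.68, 2.13 and 2.11 for the same 4 rows, with adjusted p from 0.404 to 0.529. The 4 adult rows thus differed between groups by less than the spread between libraries, in either direction.

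The level of each row per length of RNA was read from Kallisto's length-scaled TPM summed to the gene. Hba.a2 had the highest TPM of the globin rows in 10 of 10 libraries, with a median of 12190 TPM over the 10. Hbb.b1 came next with a median of 5912 TPM and was above Hba.a1 in 9 of 10 libraries, WT replicate 1 being the exception. Hba.a1 had a median of 2883 TPM and was above Hbb.bt, at 2170 TPM, in 9 of 10 libraries, KO replicate 2 being the exception. The levels of all 4 overlapped across libraries, and their order was seen within libraries only. The annotated Hba-a1 transcript starts 161 bases before its RefSeq start and is 699 bases long, against 554 for Hba-a2, which enters the TPM of these rows.

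The ratio of alpha-type to beta-type counts was compared within each library. It was 1.38, 1.22, 2.16, 1.53, 1.43 and 1.71 in KO and 4.33, 2.04, 1.80 and 2.65 in WT. Every library held more alpha-type than beta-type counts, WT replicate 1 stood highest, and KO replicate 3 overlapped the WT range. The mean log2 ratio was 0.63 ± 0.29 in KO (SD, n = 6) and 1.35 ± 0.56 in WT (SD, n = 4), a difference of -0.72 (two-sided exact permutation test, p = 0.0238, adjusted p = 0.0952 over 4 tests, smallest possible p 0.00476). After adjustment this difference did not pass 0.05, the threshold of the permutation tests. With adult transcripts only it was -0.73 (exact permutation p = 0.0190, unadjusted). WT replicate 1, with 17626 globin counts, was the library with the lowest share of globin counts, and without it the difference was -0.47 (exact permutation p = 0.0833), whereas leaving out each of the other 9 libraries gave exact permutation p-values of 0.00794 to 0.0476, all unadjusted.

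**Figure D2:**
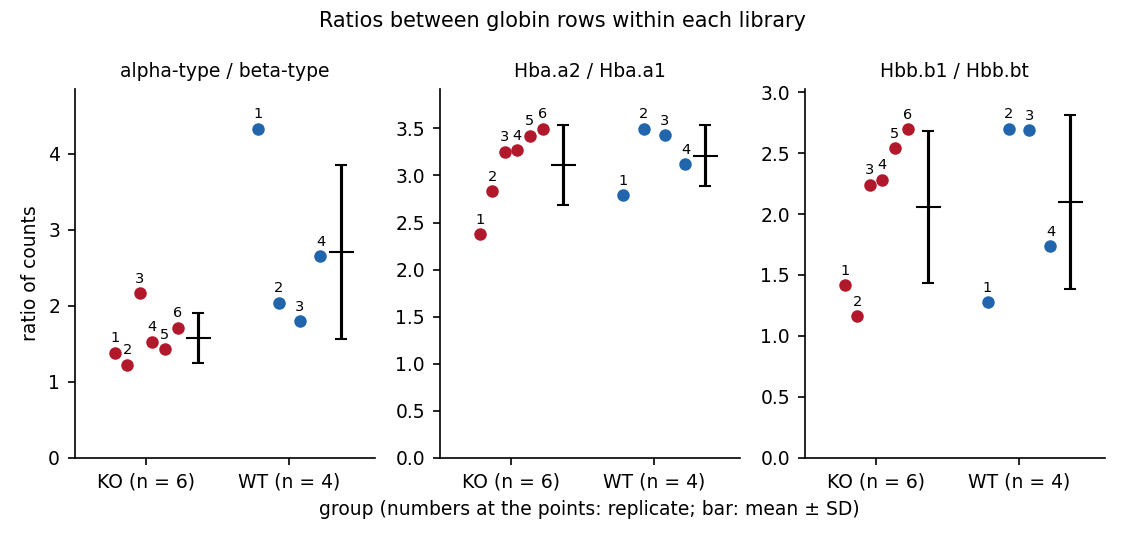
Ratios of counts within each library: alpha-type to beta-type rows, Hba.a2 to Hba.a1, and Hbb.b1 to Hbb.bt (points, libraries with their replicate number; bars, mean ± SD). The alpha to beta ratio of WT replicate 1 is 4.33, the other 9 libraries lie between 1.22 and 2.65, and the groups overlap in all 3 panels.

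Within the alpha pair, Hba.a2 exceeded Hba.a1 by 2.38, 2.83, 3.25, 3.27, 3.42 and 3.50 times in KO and by 2.79, 3.50, 3.43 and 3.12 times in WT. The mean log2 ratio of Hba.a1 to Hba.a2 was -1.62 ± 0.21 in KO and -1.68 ± 0.15 in WT, and it did not differ beyond the spread (n = 6 and 4, two-sided exact permutation p = 0.690). Within the beta pair, Hbb.b1 exceeded Hbb.bt by 1.42, 1.16, 2.24, 2.28, 2.54 and 2.70 times in KO and by 1.27, 2.70, 2.69 and 1.74 times in WT. The 4 libraries with the lowest Hbb.b1 to Hbb.bt ratio, KO replicates 1 and 2 and WT replicates 1 and 4, all had under 0.43% of their counts on globins, as did KO replicate 3 at a ratio of 2.24. The transcripts of the Hbb.b1 row include a retained-intron form, and its share of the row was 4.02%, 8.89%, 0.874%, 1.21%, 0.70% and 0.422% in KO and 2.22%, 0.240%, 0.385% and 4.41% in WT. The 4 libraries with the lowest Hbb.b1 to Hbb.bt ratio were also the 4 with the largest retained-intron share, and whether one bears on the other was not tested.

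The embryonic rows were low beside the adult rows. Hbb.y, a beta-type gene of yolk sac red cells, had 91, 9, 2, 2463, 557 and 490 counts in KO and 3, 188, 13365 and 338 in WT. Hba.x, the embryonic alpha-type gene, had 64, 1, 1, 618, 166 and 324 counts in KO and 4, 151, 3357 and 122 in WT. Both rows were highest in WT replicate 3 and next highest in KO replicate 4 on the scale of counts. Hbb.bh1 had 23, 0, 2, 25, 959 and 1159 counts in KO and 3, 355, 3612 and 16 in WT. KO replicates 5 and 6 thus held more Hbb.bh1 than Hbb.y, whereas KO replicate 4 held 25 Hbb.bh1 counts beside 2463 of Hbb.y.

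Summed, these 3 embryonic rows were 0.320%, 0.0636%, 0.00728%, 0.80%, 0.0906% and 0.102% of globin counts in KO and 0.0567%, 0.255%, 0.474% and 1.46% in WT. The share was highest in WT replicate 4, a library with 0.428% of its counts on globins, and second in KO replicate 4. In KO replicates 2 and 3 and WT replicate 1 the sum rested on 10, 5 and 10 counts. The Wilson 95% intervals were 0.0346% to 0.117% for KO replicate 2 and 1.33% to 1.59% for WT replicate 4. The mean was 0.231% ± 0.299 in KO (SD, n = 6) and 0.560% ± 0.621 in WT (SD, n = 4), which overlapped (two-sided exact permutation p = 0.333, adjusted p = 0.667 over 4 tests). Without WT replicate 4 the difference in means moved from -0.33 to -0.03 percentage points. Of the beta-type counts alone, embryonic genes made up 0.0184% to 3.96%.

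**Figure D3:**
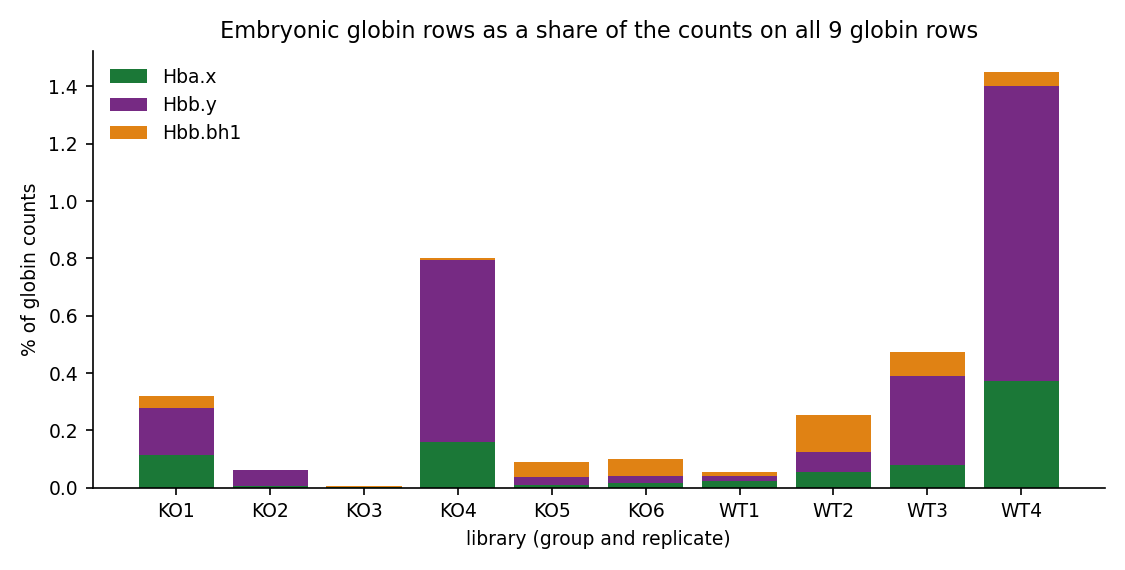
Embryonic globin rows as a percentage of the counts on all 9 globin rows in each library, stacked by row. WT replicate 4 reaches 1.46% and KO replicate 4 reaches 0.80%, both mostly Hbb.y, and in KO replicates 5 and 6 and WT replicate 2 Hbb.bh1 is the larger part.

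The split between Hbb.y and Hbb.bh1 differed between libraries with many embryonic counts. Hbb.y made up 99.0% of the sum of both in KO replicate 4, 78.7% in WT replicate 3 and 95.5% in WT replicate 4. It made up 36.7% in KO replicate 5, 29.7% in KO replicate 6 and 34.6% in WT replicate 2. The sums were 2488, 16977, 354, 1516, 1649 and 543 counts in that order, so these shares lie further apart than counting error, and each side held libraries of both groups. Per length, Hbb.y was above Hba.x in 9 of 10 libraries and above Hbb.bh1 in 5 of 10. In edgeR's test the embryonic rows had fitted log2 fold changes of -3.22 (SE 1.78, adjusted p = 0.365) for Hbb.y, -2.82 (SE 1.55, adjusted p = 0.362) for Hba.x and -2.05 (SE 1.84, adjusted p = 0.599) for Hbb.bh1. Without WT replicate 3 they were 0.45 for Hbb.y, -0.02 for Hba.x and 0.68 for Hbb.bh1.

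The remaining members were near the limit of detection. Hbb.bh2 had 7 counts in WT replicate 3 and 0 in the other 9 libraries, where 0 counts allow up to 0.0928 to 0.474 CPM (3 counts per library, TMM-scaled), and it was not tested. Hba.ps4, a pseudogene, had 1, 0, 6, 21, 46 and 25 counts in KO and 1, 2, 56 and 0 in WT, with a log2 fold change of -0.57 (SE 1.35, edgeR adjusted p = 0.861). Whether its reads belong in part to the adult alpha genes was not tested.

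Across the 10 libraries the log2 CPM of the adult rows rose and fell together. Pearson's r was 0.999 between Hba.a1 and Hba.a2 and 0.995 between Hbb.b1 and Hbb.bt, where each pair shares reads. Between the summed alpha-type and beta-type rows, which share no near-identical sequence, r was 0.983 (permutation p = 1e-05, the smallest that 100000 resamples give) and Spearman's rho was 0.964 (permutation p = 8e-05). Without WT replicate 3 and KO replicate 6, the 2 libraries farthest from the median, r was 0.962. Among the embryonic rows, Hba.x and Hbb.y had r = 0.980 with each other and 0.814 and 0.792 with Hba.a2, while Hbb.bh1 had r = 0.947 with Hba.a2 and 0.740 with Hbb.y. These values share depth and amplification within each library and are descriptions over 10 points.

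The genes most like the summed globins in log2 CPM, among 10691 other genes with a mean of at least 5 CPM, were Alas2 (r = 0.967), Slc4a1 (r = 0.962), Bcl2l1 (r = 0.960), Tmcc2 (r = 0.955) and Ube2l6 (r = 0.953), each over 10 libraries. Alas2, the erythroid enzyme of the first step of heme synthesis, had 24.7, 14.1, 22.1, 80.5, 346 and 747 CPM in KO and 2.81, 84.0, 1810 and 5.09 in WT. Slc4a1, the anion exchanger band 3 of the red cell membrane, had 53.2, 19.0, 20, 83.2, 256 and 670 CPM in KO and 2.12, 106, 2060 and 15.7 in WT. Both were lowest in WT replicate 1 and highest in WT replicate 3, as the globins were. Bcl2l1, which encodes a protein that blocks apoptosis, ranged from 36.9 CPM in WT replicate 1 to 380 CPM in WT replicate 3. None of the 5 passed the edgeR test, with adjusted p from 0.630 to 0.748.

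Other erythroblast markers did not share the position of WT replicate 1. Klf1, the transcription factor that activates adult beta globin, had 115, 132, 69.9, 63.6, 110 and 211 CPM in KO and 747, 276, 777 and 62.7 in WT. Its correlation with the globins was 0.285 and ranked 2022 of the 10691 genes. Gata1, the erythroid GATA factor, had 364 CPM in WT replicate 1 and 354 in WT replicate 3, while WT replicates 2 and 4, with 128 and 45.1 CPM, lay within the KO range of 23.8 to 164 (Gata1 was chosen after its values were seen). WT replicate 1 thus had the lowest globin level of all libraries beside Klf1 and Gata1 levels close to those of the library with the highest.

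Over the list of erythroblast markers, 22 of 23 genes were in the table and Trim58 was at 0 in 1 library, the others in none. Their summed level was 860 to 5545 CPM in KO and 1141 to 15330 CPM in WT. Globins and this sum had r = 0.670 on the log2 scale over 10 libraries (permutation p = 0.0330, adjusted p = 0.0550 over 5 relations) and rho = 0.467 (permutation p = 0.177). Without WT replicates 3 and 1, the 2 libraries farthest from the median, r was 0.911 (permutation p = 0.00122), and within the 6 KO libraries r was 0.907. The 4 WT libraries are too few for a value of their own.

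**Figure D4:**
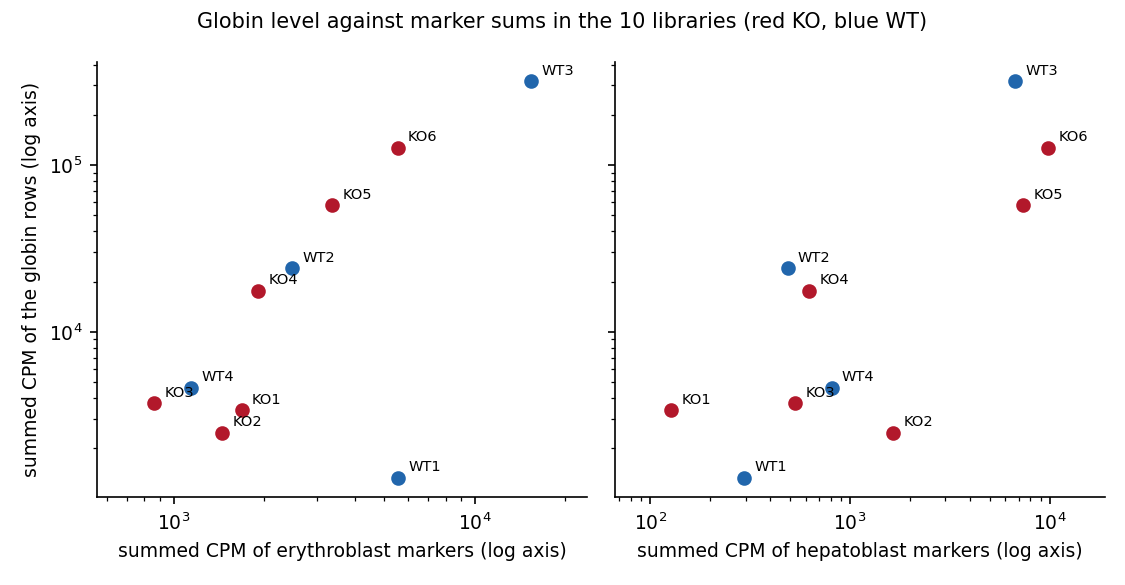
Summed CPM of the 9 globin rows against the summed CPM of erythroblast markers (left) and hepatoblast markers (right), all axes log, 1 point per library (red KO, blue WT). On the left 9 libraries rise together and WT replicate 1 lies apart, at 5557 CPM of erythroblast markers and 1337 CPM of globins.

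Markers of hepatoblasts, the parenchymal cells of the fetal liver, also moved with the globins. The summed CPM of the 15 genes, all in the table and with Krt8 at 0 in 1 library, was 128, 1645, 532, 626, 7365 and 9819 in KO and 294, 487, 6731 and 809 in WT. KO replicates 5 and 6 and WT replicate 3 were highest in both sums. The relation had r = 0.789 (permutation p = 0.00786, adjusted p = 0.0196 over 5 relations) and rho = 0.673 (permutation p = 0.0377, adjusted p = 0.0942). Without KO replicates 6 and 5 r was 0.689 (permutation p = 0.0700), so the relation rests in part on those libraries. Granulocyte markers summed to 1355 CPM in KO replicate 5 and 2193 CPM in WT replicate 3, against 8.57 to 419 CPM in the other 8 libraries. The part of these cell types in the globin counts was not tested.

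Neither the summed macrophage markers nor depth had a relation to the globins that passed 0.05. The macrophage sum had r = 0.351 with the globins (permutation p = 0.344) and -0.356 within KO, and the total count of a library had r = 0.488 (permutation p = 0.153). Of the 18 macrophage markers in the table, Marco, a scavenger receptor, was at 0 in all 6 KO libraries and at 3.41, 5.32, 14.3 and 4.53 CPM in WT (edgeR adjusted p = 0.0824). Clec4f was at 0 in 9 libraries, Timd4 in 7 and Cd5l in 4. The macrophage sum was 514 to 1055 CPM in KO and 230 to 1028 CPM in WT. This sum and its r rest mostly on Mrc1, Lyz2 and Vcam1, which averaged 329, 216 and 98.4 CPM in KO, beside a mean sum of 793 CPM. They therefore say little about the other markers of the list. Mrc1, the highest gene of that list in mean CPM, had 65.4 to 714 CPM in KO and 3.11 to 489 in WT. It was lowest in WT replicate 1 and highest in KO replicate 3, as were Stab2 and Lyve1 of the endothelial list. The label LT-HSC was read against 16 stem cell markers, all in the table and at 0 in no library. The list includes Cd48 and Flt3, which mark progenitors rather than LT-HSCs, so their counts do not bear out the label. The 16 genes summed to 1247 to 2501 CPM in KO and 838 to 1423 in WT, and the endothelial markers to 445 to 9197 CPM over the 10 libraries. The endothelial sum exceeded the stem cell sum in every library except KO replicate 6 and WT replicate 1.

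Among the other globin genes, none of which begins with Hba. or Hbb., the theta globin Hbq1b had 0.244, 0, 0.704, 5.87, 23.2 and 33.4 CPM in KO and 2.35, 3.64, 108 and 0.991 in WT. Hbq1a reached 3.92 CPM in WT replicate 3 and was at 0 in 5 libraries. Their fitted log2 fold changes were -1.44 and -1.24 (edgeR adjusted p = 0.682 and 0.739). Cygb, Ngb and Adgb, globins of cells outside the red lineage, stayed at or under 2.37, 1.45 and 1.33 CPM, and none passed the test. Myoglobin (Mb) had 0 estimated counts in every library.

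Of 22 listed genes of heme synthesis and hemoglobin assembly, 20 were tested, 6 were lower in KO and 0 higher, beside 2.67% of all genes lower, and the median log2 fold change was -1.26 against 0.06 over all genes tested. Glrx5, which serves iron-sulfur cluster assembly in mitochondria, had 55.9, 40.3, 68.7, 43.0, 77.3 and 117 CPM in KO and 344, 172, 433 and 134 in WT, and the groups did not overlap. It fell by 2.01 on the log2 scale in KO (SE 0.37, edgeR adjusted p = 0.0824). Alas1, the ubiquitous form of the first enzyme of heme synthesis, lay at 53.8 to 64.7 CPM in KO and 88.6 to 118 in WT and fell by 0.81 (SE 0.16, adjusted p = 0.0824). Alad, which joins aminolevulinate into porphobilinogen, fell by 1.52 (SE 0.38, adjusted p = 0.0836), although WT replicate 4 with 224 CPM overlapped the KO range of 147 to 326. Uros, a synthase of the same pathway, Slc25a38, a glycine carrier of mitochondria, and Abcb6, a porphyrin transporter, fell by 1.40, 1.39 and 1.21 (edgeR adjusted p = 0.0953, 0.0836 and 0.0824). For Uros, WT replicates 2 and 4, at 56.9 and 56.5 CPM, lay within the KO range of 23.1 to 65.8. For Slc25a38, WT replicate 4, at 52.8 CPM, lay within the KO range of 25.3 to 58.2. The groups did not overlap for Abcb6. Urod, a decarboxylase of the pathway and among the highest of this list in mean CPM, had a log2 fold change of -1.30 (edgeR adjusted p = 0.118).

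Those 6 calls depended on how libraries were scaled and on which libraries entered. With library totals in place of TMM, edgeR called 3 of 16725 genes lower in KO and 34 higher. At most 3 of the genes called lower in KO, in this list and the others, could therefore remain. TMM factors were 0.977 to 1.19 in KO and 0.741 to 1.01 in WT. Without WT replicate 3, 2 of the list were lower in KO and its median was -0.65, and with any one of KO replicates 1, 2, 4, 5 or 6 or WT replicate 1 left out none was, nor was any gene of the other lists, since edgeR then called at most 1 gene of all those tested. The sum over the list was 1547 to 4604 CPM in KO and 4888, 2642, 12320 and 1836 in WT, so WT replicates 1 and 3 were high here, while they were the lowest and the highest library for the globins.

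**Figure D5:**
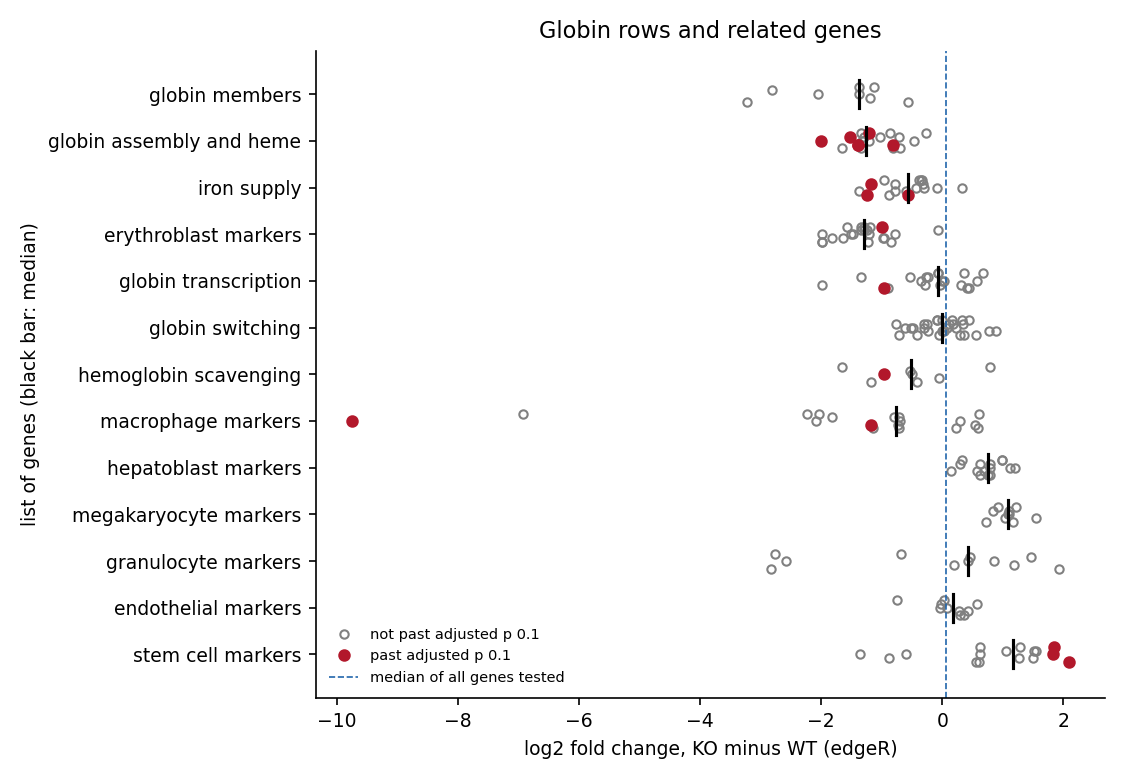
Log2 fold changes (KO minus WT, edgeR) of the globin rows and of genes in 12 related lists, filled where the adjusted p was below 0.1, with the median of each list as a black bar. The globin rows lie left of the median of all genes (0.06) with none filled, and 6 genes of heme synthesis and assembly are filled. The point farthest left is Marco, fitted against 0 counts in KO.

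Of 17 genes of iron supply, 3 were lower in KO and 0 higher, beside 2.67% and 1.32% of all genes, with a median log2 fold change of -0.56. They were the iron transporter Slc11a2 (fell by 1.24, edgeR adjusted p = 0.0877), the iron exporter Slc40a1 (fell by 1.18, adjusted p = 0.0944) and the iron-sulfur scaffold Iscu (fell by 0.56, adjusted p = 0.0913). WT replicate 4 lay within the KO range for Slc11a2 (34.8 CPM, KO 31.3 to 53.8) and Slc40a1 (39.3 CPM, KO 21.8 to 57.4). The groups did not overlap for Iscu. Ftl1, Fth1 and Pcbp2, the highest of the list and proteins that store or carry iron, had log2 fold changes of -0.78, -0.88 and -0.39 (adjusted p = 0.112, 0.103 and 0.247). Of the 22 erythroblast markers tested, 1 was called, beside 2.67% of all genes lower, the erythropoietin receptor gene Epor, which fell by 1.0 (adjusted p = 0.0937). Its level in WT replicate 4, 65.4 CPM, lay within the KO range of 43.4 to 88.8. All 22 markers were fitted lower in KO, beside 7841 of all 16725 genes tested. Of the 22, 7 had an unadjusted p under 0.05 in edgeR's test, beside 3139 of all 16725. Their median was -1.29, but -0.14 without WT replicate 3. Car2, the carbonic anhydrase with the highest level of this list, had 330 to 1340 CPM in KO and 456 to 3600 in WT (log2 fold change -1.25, adjusted p = 0.224).

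Of 20 transcription factors and cofactors at the globin loci, 1 was called, beside 3.99% of all genes, the cell cycle factor E2f4, which fell by 0.97 (edgeR adjusted p = 0.0824), and the median was -0.07 (0.13 without WT replicate 3). Klf1 had a log2 fold change of -1.99 (SE 0.56, adjusted p = 0.101), just outside the threshold, and Klf13 and Lmo2 had 0.03 and -0.54 (adjusted p = 0.954 and 0.414). Of 30 genes linked to the switch from embryonic and fetal to adult globins, none was called, and the median was 0.00. An unadjusted p under 0.05 was found for 6 of the 30, beside 3139 of all 16725 genes tested. Trim28, Hdac1 and Dnmt1, the highest of these corepressor and chromatin genes, had log2 fold changes of -0.25, -0.01 and 0.18. Of 8 genes of heme and hemoglobin clearance, Blvra, a biliverdin reductase, fell by 0.96 (adjusted p = 0.0824), while Blvrb, Hmox2 and Hmox1 had -1.66, -0.05 and -0.54 (adjusted p = 0.112, 0.938 and 0.738).

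In the marker lists of other cells, the hepatoblast list (15 genes, median 0.76), the megakaryocyte list (10, median 1.09), the granulocyte list (11, median 0.43) and the endothelial list (10, median 0.17) had no gene past the threshold in either direction, and 2 of 18 macrophage markers, Marco and Slc40a1, were lower in KO, beside 2.67% of all genes. Single libraries moved these medians. The granulocyte median was -1.48 without KO replicate 5 and 4.43 without WT replicate 3, and the hepatoblast median was 0.09 without KO replicate 6 and 2.77 without WT replicate 3. The endothelial median was -0.18 without WT replicate 1, and the megakaryocyte median 0.63 without KO replicate 6. The following genes, among the highest of each list in mean CPM, did not pass the threshold. Among macrophage markers, Mrc1, a mannose receptor, Lyz2, a lysozyme, and Vcam1, an adhesion molecule, had log2 fold changes of 0.22, 0.54 and 0.59 (edgeR adjusted p = 0.928, 0.660 and 0.342), of the opposite sign to Marco. Over the whole macrophage list 13 genes were fitted lower in KO and 5 higher, beside 7841 lower and 8884 higher of all genes tested. The median of the list was -0.77 (-0.42 without WT replicate 3). The serum protein genes Afp, Trf and Alb of the hepatoblast list had 0.78, 0.78 and 0.63 (adjusted p = 0.801, 0.794 and 0.843), and the platelet genes Pf4, Ppbp and Itga2b had 1.10, 1.21 and 0.84 (adjusted p = 0.591, 0.638 and 0.509). The granulocyte genes Mpo, S100a8 and Prtn3 had -2.58, 0.19 and 0.46 (adjusted p = 0.442, 0.971 and 0.810). The endothelial genes Stab2, Lyve1 and Egfl7 had 0.57, 0.08 and 0.30 (adjusted p = 0.801, 0.974 and 0.736), and the stem cell surface genes Esam and Kit had 0.63 and 1.05 (adjusted p = 0.361 and 0.139). Of the 16 stem cell markers, 3 were higher in KO against 1.32% of all genes: Hlf, Mecom and Hoxa9, transcription factors of stem cells, rose by 1.84, 1.83 and 2.09 on the log2 scale (edgeR adjusted p = 0.0906, 0.0836 and 0.0836). KO replicate 3 did not share this rise. Its Hlf, 13.7 CPM, lay under the WT range of 17.7 to 32.8, and its Hoxa9, 9.42 CPM, within the WT range of 4.93 to 17.0. Its Mecom, 47.2 CPM, lay close to the highest WT value, 45.3. The other KO libraries lay above the WT range for all 3 genes. In the stem cell list 13 genes were fitted higher in KO and 3 lower, beside 8884 higher and 7841 lower of all genes tested. The median of the list was 1.16 (0.82 with the transcript length offset). The sorted cells of the groups thus differed in the fitted level of these markers as well. Without WT replicate 3, 1 stem cell gene and 1 macrophage marker were called.

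Spi1 had 45.6, 76.3, 9.10, 101, 65.5 and 65.7 CPM in KO and 6.22, 33.8, 50.1 and 7.64 in WT (log2 fold change 1.31, SE 0.69, edgeR adjusted p = 0.337), and Tnfrsf11a had 1.45 to 4.11 CPM in KO and 0.683 to 5.80 in WT. The Cre is active in macrophage progenitors, so these levels in sorted LT-HSCs do not check the genotype labels.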

How the data were processed

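Bulk RNA-seq libraries of LT-HSCs (6 KO, 4 WT) were made by the authors with SmartSeq2 from small numbers of sorted cells, sequenced as single-end reads, demultiplexed with bcl2fastq 2.20 and quantified with Kallisto 0.44.0 on Gencode vM16 (GRCm38). The authors deposited 1 gene table of counts, in which estimated counts were summed by symbol and rounded, and, for each library, transcript tables of estimated counts and TPM, which is scaled for transcript length. Depth was 5315435 to 30941726 counts per library, and reads carry no molecular identifiers, so intervals cover counting error only. Positions and transcript sequences were taken from Gencode vM21 and promoters from RefSeq (GRCm38.p6).

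KO was compared with WT over the 16725 genes whose counts summed to 11 or more, by edgeR 4.0.16 in R 4.3.3 (TMM, glmQLFit with the robust option, glmQLFTest), where the study used DESeq2 with a fold-change threshold. Benjamini-Hochberg adjusted p below 0.1 was the threshold, as in the study. The fit and the permutation test were tested on simulated data. Shares and log2 ratios (pseudocount 0.5) were compared by two-sided exact permutation tests at a threshold of 0.05, adjusted over 4 tests, and relations by permutation (100000 resamples, adjusted over 5). Named genes are all globin rows and other globins, the genes past the threshold and the 3 highest in mean CPM of each list, the 5 genes most like the globins, Spi1 and Tnfrsf11a. Gata1 and the markers at 0 in some libraries (Clec4f, Timd4, Cd5l, Krt8, Trim58) are named outside this rule, after their values were seen. The members and lists were chosen with earlier results of these data known. Replicate numbers follow accession order, and no batch is given by the labels. Alternatives were DESeq2 1.42.0 with and without a threshold of 0.1, DESeq2 size factors, upper-quartile scaling, library totals, globins left out of library sizes, other filters, no robust option, a transcript length offset, a threshold of 0.05, other denominators and scales for shares and ratios, and each library left out. Ahsp was not analysed here, and 2 genes that the naming rule covers are not reported here.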

Additional observations from a re-analysis of the deposited data

Results flagged for a closer look

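Single libraries stood apart within their group by Dixon's criterion in 12 of 34 groups of values tested, where chance flags about 5% if values are normally distributed. The flagged values are percentages and CPM without a log transform, which are skewed here. The number flagged therefore cannot be read as an excess over chance. In WT, replicate 3 was the highest library far from the rest in 11 of these. Its share of counts on globins was 23.5% against a next value of 2.44%, and its hepatoblast marker sum was 6731 CPM against 809. Its Hba.a1 was at 46000 CPM against 3608, Hba.a2 at 157700 against 12610, Hbb.b1 at 81690 against 5769 and Hbb.bt at 30400 against 2136. Hba.x was at 248 CPM against 17.3, Hbb.y at 988 against 47.8 and Hbb.bh1 at 267 against 31.5. Hba.ps4 was at 4.14 CPM against 0.178, and Hbb.bh2 at 0.518 CPM against 0. In KO, Hbb.y stood apart in replicate 4, at 112 CPM against a next value of 32.2. The values share 1 library and the same sequence family, so they are not independent of each other.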

How the results depend on the processing

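No globin row passed the threshold under any of the 22 settings tried, and of 166 fitted values of single rows 159 kept their sign. The other 7 reversed, all without WT replicate 3. With 1 library left out Hba.a1 ranged from -2.44 to 1.67, Hba.a2 from -2.49 to 1.68, Hba.ps4 from -0.96 to 2.99, Hbb.b1 from -2.21 to 2.13, Hbb.bh1 from -3.50 to 0.68, Hbb.bt from -2.02 to 2.11 and Hbb.y from -4.53 to 0.45. The number of all genes called, 667, became 1136 with DESeq2 and a fold-change threshold (51.5% of them higher in KO against 33.1%), 2143 with DESeq2 without it (46.6% higher), 37 with library totals in place of TMM (91.9% higher) and 0 at an adjusted p of 0.05, where 3139 had an unadjusted p under 0.05. With a transcript length offset 9.3% of 516 calls were higher. With 1 library left out it ranged from 0 to 1003. Listed genes called higher in KO, 3, became 6 with DESeq2 and 1 with the length offset and ranged from 0 to 10 with 1 library left out, and those called lower, 13, became 20 with DESeq2 and ranged from 0 to 23 (left-out libraries for the lists were added after the data were seen). The difference in globin share reversed on the log2 scale (0.0382) and ranged from -5.22 to 2.58 points with 1 library left out. The alpha to beta difference ranged from -0.89 to -0.47, the Hba.a1 to Hba.a2 difference from -0.0226 (without KO replicate 1) to 0.12, and the embryonic share difference from -0.50 to -0.03 points. The erythroblast relation was 0.467 by Spearman's rho, and the hepatoblast relation 0.689 without its 2 farthest libraries. The causes were not tested. No paired analysis was possible because the replicate numbers are names in accession order. With 4 WT libraries and a 189-fold range of globin share, differences between groups smaller than this spread were not detectable.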

Other observations

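The transcript tables held 3 globin pseudogenes that are not rows of the gene table. Hba-ps3, on chromosome 15, had 32 estimated counts in WT replicate 3, 20 in KO replicate 5, 10 in KO replicate 6, 3 in KO replicate 4 and 0 in the other 6 libraries. Hbb-bh0 had 11 in WT replicate 3 and 1 in KO replicate 6, and Hbb-bh3 had 1 in WT replicate 3. The libraries with counts are among those with the most adult globin. A retained-intron transcript of Hba-a1 took 0% to 2.82% of its row, with the highest share in WT replicate 1, and that of Hba-a2 had 0 estimated counts in every library.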
